A study of Bos taurus with 9 samples.

Results

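The late-numbered bovine miRNAs described here are the loci whose bta-miR name carries a number of 1000 or more, with the bta-miR-2284 and bta-miR-2285 names left out. They were taken by name from the loci that the study listed as known or homologous miRNA, part of 101889 loci with deposited counts. The rule found 20 loci under 19 names, because bta-miR-2904 stands at a locus on chromosome 3 and at another on chromosome 6. The loci compared with them were the 172 loci of lower-numbered names (bta-miR numbered below 1000 and bta-let-7). Another 12 loci were bta-miR-2284 or bta-miR-2285, and 45 were named after miRNAs of other species.

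MicroRNAs are short RNAs cut from a hairpin precursor, and they lower the output of messenger RNAs that they pair with after loading into an Argonaute protein. Either arm of the hairpin (5p or 3p) can be the one that is kept. Names are numbered in order of discovery, so that high numbers were mostly assigned to miRNAs found later by deep sequencing, which tend to be scarcer and less conserved than the first ones described. Extracellular vesicles (EVs) are membrane-bound particles that carry RNA between cells, and those of follicular fluid can be taken up by granulosa cells.

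Small RNA was sequenced from EVs of fluid aspirated from follicles of cow ovaries. Size was the only difference between the groups that the labels give. By the study's methods, small follicles were aspirated with a finer needle than medium and large ones. Size and needle cannot be told apart in comparisons with small follicles. The 9 libraries were 3 of small (3 to 5 mm; replicates 1, 2 and 4), 3 of medium (6 to 9 mm; replicates 5, 6 and 8) and 3 of large follicles (over 9 mm; replicates 10, 11 and 12). Each library was made from a pool of follicles of 1 size, so that values stand for a pool and not for a single follicle, and p-values measure the spread between these pools. Fluid of each size was taken at every collection, but which pools came from the same collection is not given in the sources used here, so that the tests treat the pools as unpaired. Fewer vesicles of a cell type and less RNA per vesicle cannot be told apart in such material.

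Deposited counts summed to 8941598 to 14664460 per library. The listed miRNA loci took 14.1 to 26.9% of them for small follicles, 3.75 to 11.2% for medium and 1.43 to 5.65% for large ones, which left 146617 to 3394554 miRNA counts per library. Medium replicate 8 and large replicate 12 had the highest miRNA share of their sizes. Counts were scaled to the miRNA loci (TMM) and are given as normalized counts, as counts per 1000000 miRNA counts. A single read was worth 0.308 to 0.852 normalized counts in small follicle EVs, but 5.58, 7.10 and 1.77 in large replicates 10, 11 and 12, so that low values are coarsest there. The gonadal miRNAs bta-miR-202 and chi-miR-202-3p, which mark somatic cells of the ovary, were abundant in every library (summed normalized count 11578 to 34277). The blood-cell miRNAs bta-miR-142-5p, bta-miR-150, bta-miR-451 and bta-miR-486, 4 of a list of 6, summed to 490 to 2492 normalized counts for small follicles, 1534 to 2932 for medium and 7144 to 15499 for large ones.

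The late-numbered loci were a minor part of the miRNA counts. Together they held 94198 of 10445558 counts, or 0.902%, against 95.1% for the lower-numbered loci. Their median total over the 9 libraries was 1379 counts (345 to 27379), and that of the lower-numbered loci was 7981 (363 to 967617). The study listed only loci whose reads averaged 100 or more in some follicle size, so that scarcer loci are missing from both groups. Counts are per locus and not divided by length, which ran from 16 to 26 bases with a median of 23. By total count, 3 of the 20 loci stood among the first 100 of the listed loci, and 8 had fewer than 1000 counts in all.

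**Figure D1:**
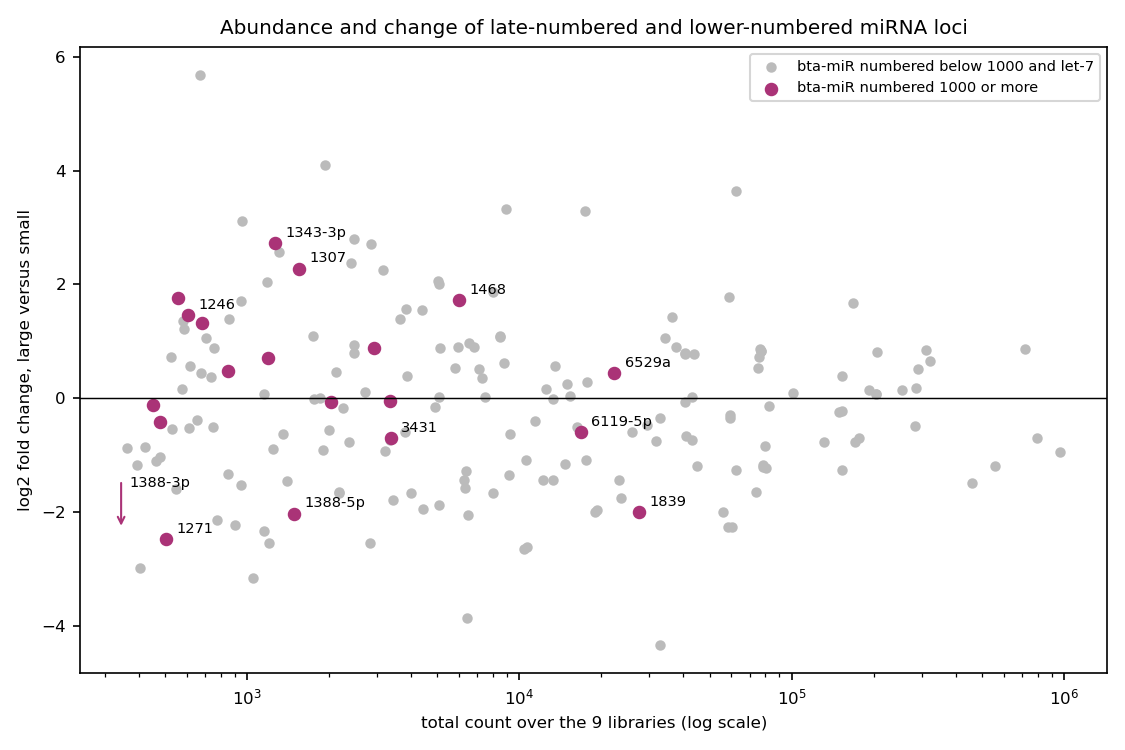
Total count over the 9 libraries (x axis, log scale) and log2 fold change in large versus small follicle EVs (y axis) of the 20 late-numbered loci and the 172 lower-numbered loci, with the other loci of the list left out. The late-numbered loci lie between 345 and 27379 counts on both sides of 0, and the arrow stands for bta-miR-1388-3p, which had no count in large follicle EVs and is drawn from its bound downward.

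Most of these counts came from a few loci. bta-miR-1839 (chr14:1883889-1883911, minus strand, within MROH1) held 29.1% of them, bta-miR-6529a (chr1:65453397-65453417, minus strand, within the kinase gene GSK3B) 23.7% and bta-miR-6119-5p (chrX:3998327-3998349, minus strand, within the ribosomal protein gene RPL39) 17.9%. Positions are those of the deposited loci on UMD3.1. The genes are those that RefSeq places around the same miRNA symbols on ARS-UCD2.0, where 16 of 17 symbols were found and 13 overlapped a protein-coding gene. The share of these 3 loci in the late-numbered counts stood at 75.0% ± 7.19 (SD, n = 3) for small follicles, 68.3% ± 5.07 for medium and 53.8% ± 2.72 for large ones. bta-miR-1839 alone went from 34.2% ± 6.58 to 20.5% ± 6.41 and 9.34% ± 1.53, whereas bta-miR-6529a made up 19.7% ± 5.41, 29.7% ± 8.72 and 26.3% ± 13.4.

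The share of all late-numbered loci in the miRNA counts overlapped between the sizes, with 0.935% ± 0.205 for small follicles, 0.994% ± 0.110 for medium and 0.875% ± 0.139 for large ones. Per 1000000 of all deposited counts they stood at 1912 ± 274, 605 ± 369 and 272 ± 261, as the miRNA share of the libraries was also lower in medium and large follicle EVs. No library of small follicle EVs had a late-numbered locus at 3 counts or fewer, whereas 2 to 3 of the 20 loci were that low in each library of large follicle EVs. That difference was largely set by the listing and is not a result about these loci. The small libraries held the most miRNA counts, so that the listing minimum was easiest to reach there.

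The comparison of large with small follicle EVs covers the widest step in antral growth, and 9 of the 20 loci differed in it (edgeR quasi-likelihood test, FDR under 0.05 over all listed loci). Of all loci tested 42.2% passed, and of the lower-numbered loci 42.4%, so that the late-numbered loci did not stand apart by their number of calls. bta-miR-1343-3p, bta-miR-1307, bta-miR-1468 and both bta-miR-2904 loci were higher in large follicle EVs (17.7% of all loci were), but scaled to all deposited counts each of these 5 had a negative log2 fold change. With TMM over all deposited loci 3 of them were called lower, bta-miR-1468 with an FDR of 0.0366 and bta-miR-2904 with 0.0189 on chromosome 3 and 0.0287 on chromosome 6. That scaling called most of the listed loci, and their median log2 fold change under it was -4.71. bta-miR-1839, both arms of bta-miR-1388 and bta-miR-1271 were lower (24.5% of all loci were). They were lower under that scaling too, which follows from its low median and is not separate evidence. Except for bta-miR-1839, these loci reached the study's listing minimum in small follicle EVs only, so that their calls are tied to the listing. Both bta-miR-2904 loci, called higher on the miRNA scale, also reached it in small follicle EVs only. Log2 fold changes were positive for 10 loci and negative for 10, with a median of 0.20, also with bta-miR-1388-3p at its bound, against -0.18 over all listed loci. With bta-miR-2904 left out the median was -0.05, with 8 loci positive and 10 negative, and 7 of 18 (38.9%) were called. Normalized counts did not overlap between large and small for 8 of the 20 loci, and for 53.0% of all loci. An unadjusted p under 0.05 was reached by 10 of the 20 and by 50.2% of all loci. bta-miR-1343-3p, bta-miR-1468, bta-miR-1839 and both arms of bta-miR-1388 were called in each of the 9 fits that left out a library. The other late-numbered calls were lost without small replicate 1.

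**Figure D2:**
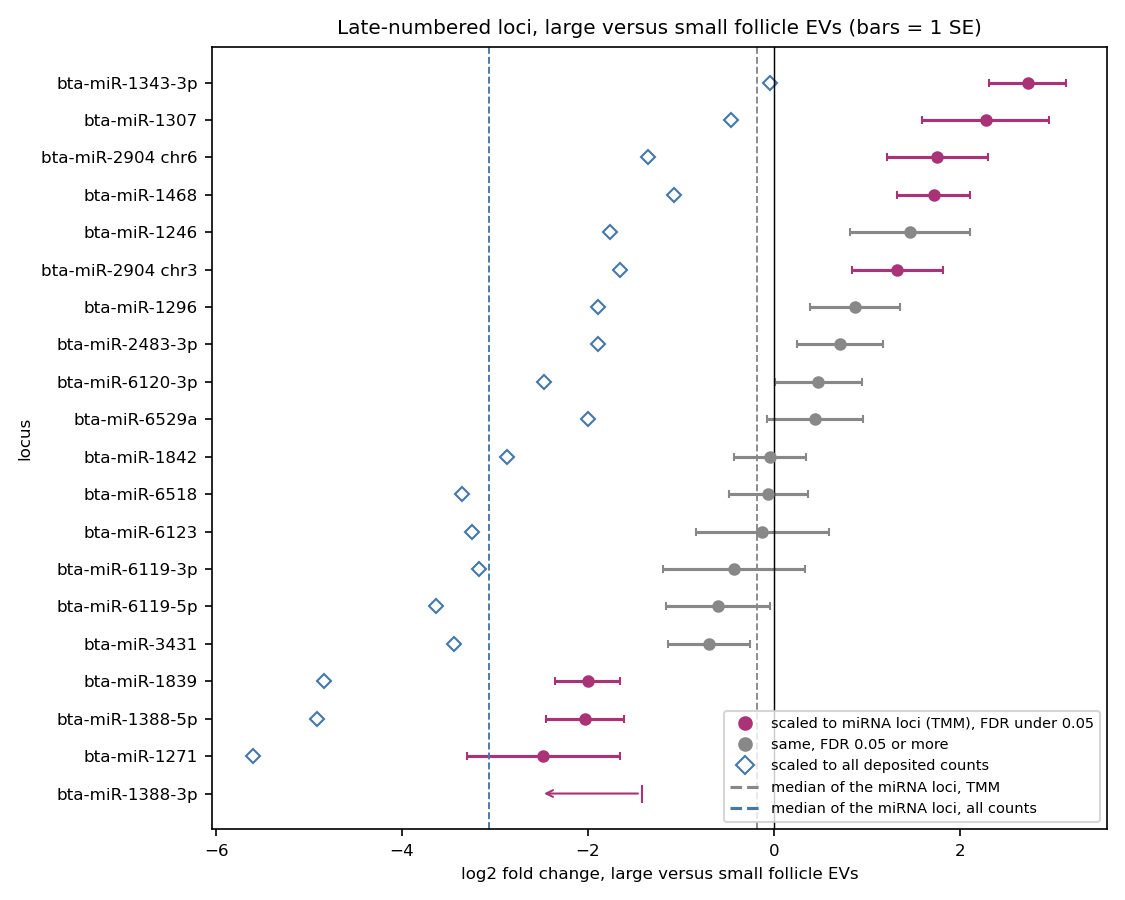
Log2 fold change in large versus small follicle EVs of each late-numbered locus (circles, bars 1 SE; purple where the FDR was under 0.05), the same with counts scaled to all deposited loci (open diamonds), and the medians of all listed loci under both scalings (dashed lines). On the miRNA scale the loci run from 2.73 for bta-miR-1343-3p to -2.48 for bta-miR-1271, and the diamonds lie at or below 0; the arrow for bta-miR-1388-3p starts at its bound.

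bta-miR-1343-3p (chr15:66264896-66264918, plus strand) lies within PDHX, which encodes a component of the pyruvate dehydrogenase complex, and it showed the largest rise of the 20 loci. Its normalized counts were 64.0, 52.0 and 65.1 in small, 128, 169 and 212 in medium and 234, 384 and 577 in large follicle EVs. All 9 values were ordered by size with no overlap between groups. The log2 fold change was 2.73 (SE 0.42, FDR 0.0006), and the locus was called without any 1 of the 9 libraries. Per 1000000 of all deposited counts it stood at 14.2, 6.82 and 17.6 in small, 5.80, 6.33 and 23.6 in medium and 4.31, 5.28 and 27.9 in large, where the groups overlapped and large replicate 12 and medium replicate 8 were the highest.

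bta-miR-1468 (chrX:101844110-101844131, plus strand) had normalized counts of 392, 329.6 and 525 in small, 722, 421 and 747 in medium and 903, 1215 and 1974 in large follicle EVs. Every large library was above every small and medium one. The locus rose by 1.72 on the log2 scale from small to large (SE 0.39, FDR 0.0062) and was also called with any 1 library left out.

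bta-miR-1307 (chr26:24230118-24230140, minus strand) lies within ATP5MK, which encodes a small subunit of the mitochondrial ATP synthase. Its normalized counts were 85.2, 47.7 and 109.5 in small, 99.0, 86.6 and 315 in medium and 100.4, 398 and 669 in large follicle EVs. Large replicate 10 lay among the small libraries, while large replicates 11 and 12 were above all 3 of them. It rose by 2.28 on the log2 scale (SE 0.68, FDR 0.0204), with an FDR of 0.0620 without small replicate 1, 0.0687 without small replicate 2 and 0.0708 without large replicate 12, where the log2 fold change was 1.60.

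Of the 4 blood-cell miRNAs in the list, 3 rose in the same comparison, among them bta-miR-486, an abundant miRNA of red cells, by 3.29 on the log2 scale (FDR 0.0055) and bta-miR-150 of lymphocytes by 5.68 (FDR 0.0013). The fourth, bta-miR-451 of red cells, had a log2 fold change of 2.04 (FDR 0.0623). Their part in the rise of bta-miR-1343-3p, bta-miR-1468 and bta-miR-1307 was not tested.

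**Figure D3:**
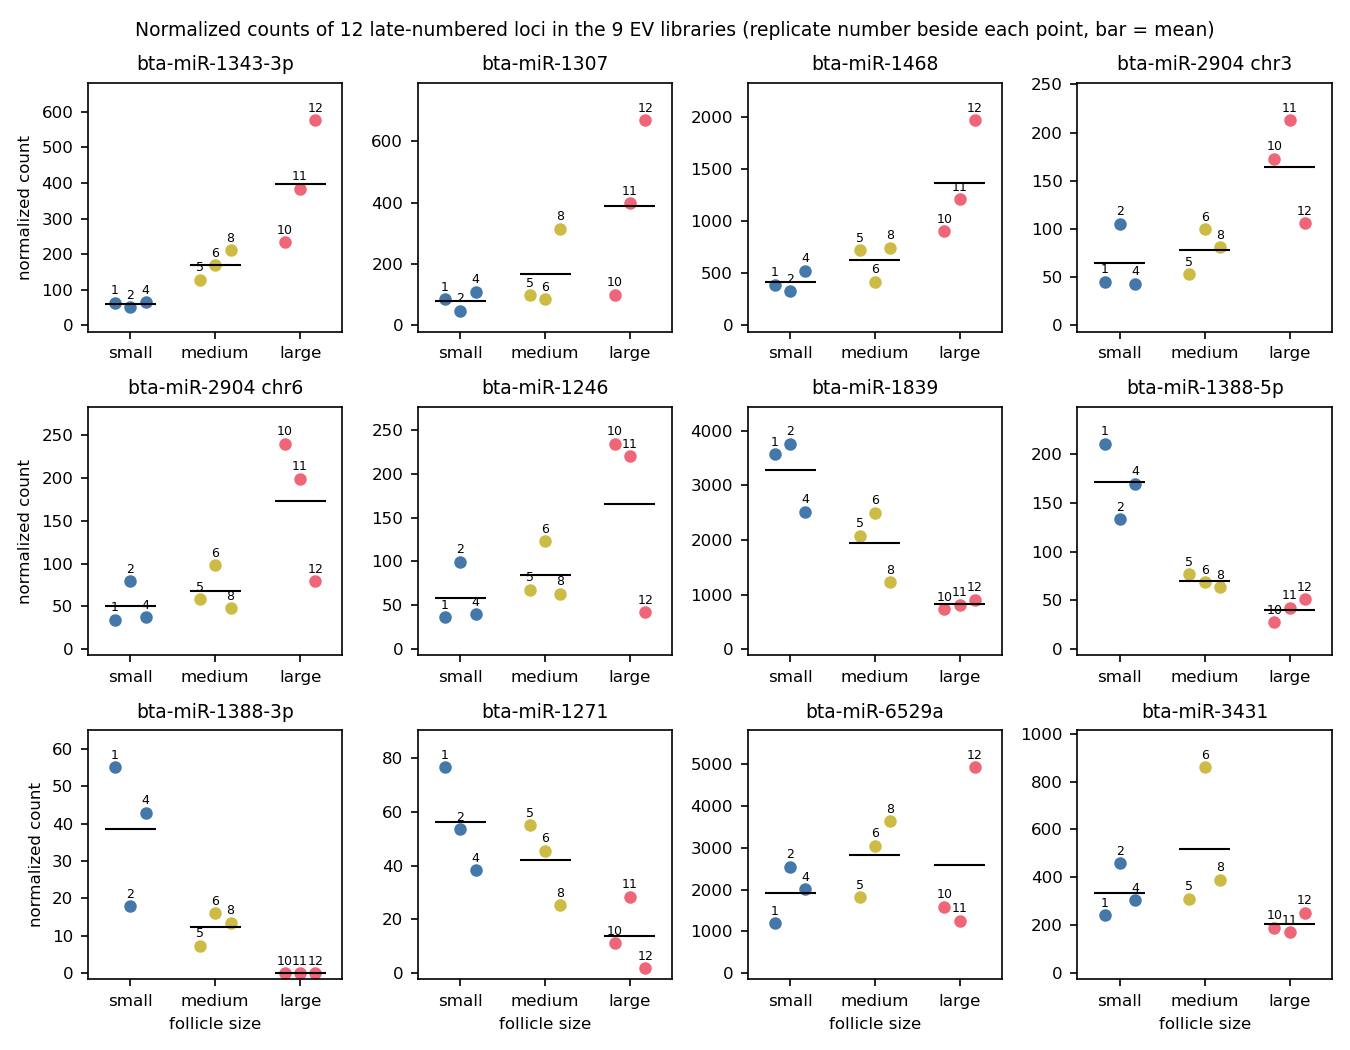
Normalized counts (y axis, counts per 1000000 miRNA counts, each panel from 0 on its own scale) of 12 late-numbered loci in the 3 libraries of each follicle size, with the replicate number at each point and the mean as a bar. All 3 large libraries lie above all small ones for bta-miR-1343-3p, bta-miR-1468 and, by a narrow margin, both bta-miR-2904 loci. They lie below them for bta-miR-1839, bta-miR-1388-5p, bta-miR-1388-3p and bta-miR-1271.

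The loci of bta-miR-2904 differed from the other 18 late-numbered loci in their surroundings. The locus on chromosome 3 (chr3:53471273-53471298, plus strand) was 26 bases long and that on chromosome 6 (chr6:92539383-92539398, plus strand) 16 bases, the longest and the shortest of the 20. Within 2000 bases the first had 48 other deposited loci with 87049 counts, and the second 33 with 56755 counts, all on its own strand. None of the other 247 loci of the list had more than 5, and 11 of the other 18 late-numbered loci had none. The surrounding loci were 16 to 68 bases long on chromosome 3 and 17 to 88 bases on chromosome 6, with totals of up to 5556 and 5128 counts, whereas the bta-miR-2904 loci had 681 and 556. The 2 loci share a name, and how reads that fit several places were assigned is not given in the sources used here. Their counts may therefore not be separate. The same holds for the surrounding loci, some of which recurred with the same length and a similar total. A locus of 53 bases had 5065 and 5109 counts at 2 places on chromosome 3 and 5087 on chromosome 6.

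**Figure D4:**
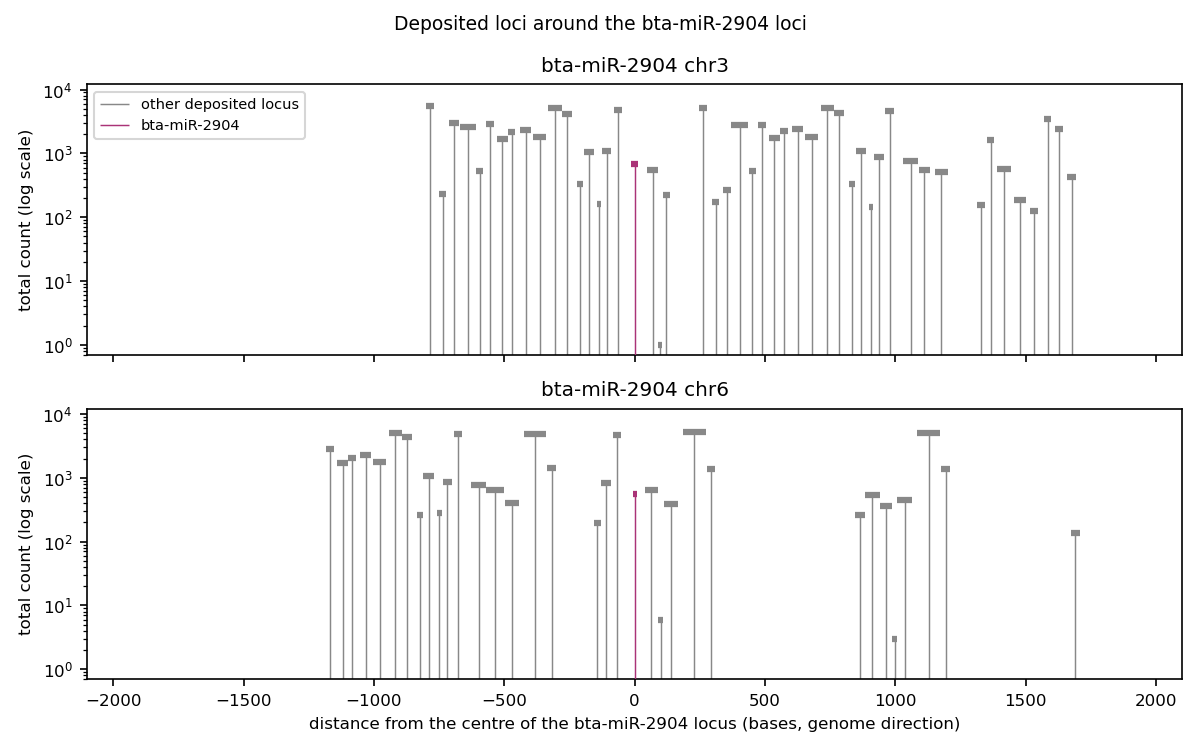
Deposited loci within 2000 bases of the bta-miR-2904 locus on chromosome 3 (top) and chromosome 6 (bottom), by distance from its centre in bases (x axis) and total count over the 9 libraries (y axis, log scale), each bar as wide as the locus. The bta-miR-2904 loci, at 681 and 556 counts, are single loci in rows of 48 and 33 others, many of them higher.

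The normalized counts of bta-miR-2904 on chromosome 3 were 45.5, 106 and 43.3 in small, 53.2, 100.2 and 80.9 in medium and 173, 213 and 106 in large follicle EVs. Those on chromosome 6 were 34.4, 79.2 and 37.5, then 58.7, 98.0 and 48.0, and 239.8, 199 and 79.6. In both loci small replicate 2 was the highest small library and large replicate 12 the lowest large one, and these 2 libraries almost met. The log2 fold change from small to large was 1.33 on chromosome 3 (SE 0.49, FDR 0.0471) and 1.76 on chromosome 6 (SE 0.54, FDR 0.0223).

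Both calls depended on which libraries were fitted. The chromosome 3 locus was called in 2 of the 9 fits that left out a library. Its FDR was 0.154 without small replicate 1, 0.103 without small replicate 4, 0.0575, 0.0570 and 0.0609 without medium replicates 5, 6 and 8, and 0.0818 and 0.134 without large replicates 10 and 11. That of the chromosome 6 locus was 0.0889 and 0.0581 without small replicates 1 and 4, and 0.0702 and 0.0649 without large replicates 10 and 11. Per 1000000 of all deposited counts the 2 loci were lower in large follicle EVs, at 11.9 in small, 5.06 in medium and 3.75 in large on chromosome 3 and 9.39, 3.90 and 3.67 on chromosome 6. The loci around them had 1504 ± 503, 565 ± 312 and 616 ± 125 on chromosome 3 and 1010.1 ± 281, 376 ± 228 and 355 ± 37.5 on chromosome 6. As a percentage of the counts around them, bta-miR-2904 stood at 0.820, 0.858 and 0.657% on chromosome 3 and at 0.957, 1.16 and 1.06% on chromosome 6, differences within the spread between libraries.

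bta-miR-1246 (chr1:116822079-116822099, plus strand), whose human namesake is known as an EV miRNA and as a fragment of U2 small nuclear RNA, did not pass the test. Its normalized counts were 36.3, 99.7 and 39.7 in small, 67.8, 123 and 63.2 in medium and 234, 220 and 42.4 in large follicle EVs. Large replicate 12 lay among the small libraries, far from the other 2 large ones. The log2 fold change was 1.47 (SE 0.65, FDR 0.0860), and the FDR was 0.0418 without small replicate 2 and 0.0128 without large replicate 12. DESeq2 called it with all 9 libraries (FDR 0.0277). Per 1000000 of all deposited counts the values were 8.05, 13.1 and 10.7, then 3.06, 4.62 and 7.05, and 4.31, 3.03 and 2.05.

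In the lowered group, bta-miR-1839 had the highest total count of the late-numbered loci, and in large follicle EVs its normalized count was below those of bta-miR-6529a and bta-miR-6119-5p on average. Its normalized counts were 3568, 3760.4 and 2515 in small, 2077, 2501 and 1229 in medium and 731, 817 and 907 in large follicle EVs. The 3 sizes did not overlap, but small replicate 4 (2515) and medium replicate 6 (2501) almost met. The large libraries lay close together. It fell by 2.00 on the log2 scale from small to large (SE 0.35, FDR 0.0013) and was called without any 1 of the libraries. It rested on 115 to 11603 counts per library.

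bta-miR-1388 gave both arms of its hairpin, the 5p arm at chr13:54375944-54375965 and the 3p arm at chr13:54375983-54376003 on the plus strand, with no annotated gene overlapping it. The 5p arm had normalized counts of 210.3, 133 and 169.5 in small, 77.0, 68.3 and 63.2 in medium and 27.9, 42.6 and 51.3 in large follicle EVs. These fell in order of size with no overlap. The log2 fold change from small to large was -2.03 (SE 0.42, FDR 0.0037), on 5, 6 and 29 counts in the large libraries.

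The 3p arm of bta-miR-1388 had 179, 21 and 118 counts in small, 4, 7 and 16 in medium and 0 in all 3 large libraries. In normalized counts these were 55.0, 17.9 and 42.9 and then 7.33, 15.9 and 13.5. Against a floor of 3 counts in each large library it was at least 2.67-fold lower there than in small follicle EVs, a bound that covers counting error only. The quasi-likelihood test of large versus small gave an FDR of 0.0051, which is not a test of this bound. With this floor of 3 counts in each library no bound on the fold from medium to large can be given, because the medium mean lay under it. Both arms were called in large versus small without any 1 of the 9 libraries. They reached the study's listing minimum in small follicle EVs only.

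bta-miR-1271 (chr7:39194962-39194983, plus strand), which shares its seed with miR-96, lies within ARL10, a small GTPase gene. Its normalized counts were 76.6, 53.7 and 38.2 in small, 55.0, 45.6 and 25.3 in medium and 11.2, 28.4 and 1.77 in large follicle EVs. The large libraries were all below the small ones, but on 2, 4 and 1 counts. bta-miR-1271 reached the study's listing minimum in small follicle EVs only. It fell by 2.48 on the log2 scale from small to large (SE 0.82, FDR 0.0304), and the FDR was 0.101 without small replicate 1, 0.106 without large replicate 12 and 0.0579 when only large and small libraries were fitted. Its log2 fold change was -1.55 without large replicate 12 and -3.61 without large replicate 11.

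The other 11 loci did not pass the test in large versus small, with log2 fold changes from -0.70 to 1.47 and an FDR from 0.0860 to 0.949, and each had overlapping groups. bta-miR-6529a had normalized counts of 1194, 2546 and 2013 in small, 1817, 3050.4 and 3639 in medium and 1589, 1250.4 and 4928 in large follicle EVs. Large replicate 12 was the highest of the 9 libraries and large replicate 11 the second lowest. Its log2 fold change was 0.44 (SE 0.51, FDR 0.508) and turned to -0.43 without large replicate 12. The 5p and 3p arms of bta-miR-6119 had log2 fold changes of -0.60 (FDR 0.403) and -0.43 (FDR 0.678), which changed sign without small replicate 2 and without large replicate 10, respectively.

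Of the rest, 5 loci differed between large and small by less than the SD of the large libraries. bta-miR-1296, within the histone demethylase family gene JMJD1C, had 223 ± 98.1 in small and 404 ± 192 in large follicle EVs. bta-miR-1842, within the phosphatase gene PGP, had 298 ± 74.4 and 286 ± 119, and bta-miR-6518, within the adrenomedullin gene ADM, 196 ± 47.9 and 192 ± 79.7. bta-miR-2483-3p, within the teneurin gene TENM1, had 96.1 ± 9.22 and 152 ± 99.4, and bta-miR-6120-3p, within the kinase gene CSNK1G2, 86.5 ± 15.2 and 120.5 ± 61.7.

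Libraries of 1 size differed among themselves in a way that several late-numbered loci shared. bta-miR-1246, both bta-miR-2904 loci and bta-miR-6119-5p had their highest small value in replicate 2 and their highest medium value in replicate 6, the libraries with the lowest miRNA share of those sizes (14.1 and 3.75%), and their lowest large value in replicate 12, the library with the highest (5.65%). bta-miR-1343-3p, bta-miR-1468 and bta-miR-1307 had their lowest small value in replicate 2 and their highest medium and large values in replicates 8 and 12. Other loci followed neither pattern, such as bta-miR-1839 and bta-miR-3431, which were highest in small replicate 2, medium replicate 6 and large replicate 12. The part of the miRNA share in these values was not tested.

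From small to medium follicles none of the 20 loci was called, and no other listed locus was (0.0% by edgeR's quasi-likelihood test). An unadjusted p under 0.05 was reached by 4 late-numbered loci and by 17.7% of all loci. edgeR's exact test called 16 of the listed loci and DESeq2 28, of which each had 2 late-numbered loci, bta-miR-1343-3p and bta-miR-1388-5p. In the quasi-likelihood test bta-miR-1343-3p had a log2 fold change of 1.49 (SE 0.40, FDR 0.0676) and was called without large replicate 12 (FDR 0.0362). bta-miR-1388-5p had -1.30 (SE 0.38, FDR 0.0884). Groups did not overlap for 5 of the 20 loci and for 28.5% of all loci.

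From medium to large follicles bta-miR-1839 was the 1 late-numbered locus called, with a log2 fold change of -1.24 (SE 0.34, FDR 0.0446), where 10.4% of all loci passed, 5.62% higher and 4.82% lower. Its call was lost in 7 of the 9 fits without a library. The FDR was 0.0566 and 0.0593 without small replicates 1 and 2, 0.148 and 0.141 without medium replicates 5 and 6, and 0.0760, 0.118 and 0.0575 without large replicates 10, 11 and 12. bta-miR-1343-3p (1.24, SE 0.40, FDR 0.0568), bta-miR-1468 (1.12, SE 0.39, FDR 0.0722) and bta-miR-3431 (-1.33, SE 0.45, FDR 0.0644) did not pass. Neither did bta-miR-1388-3p (FDR 0.0555), which had no count in large follicle EVs. edgeR's exact test and DESeq2 called all of these, bta-miR-1388-3p with an FDR of 0.0288 and 0.0269. bta-miR-1343-3p was also called without large replicate 10 (FDR 0.0421). Groups did not overlap for 7 of the 20 loci and for 36.1% of all loci, and an unadjusted p under 0.05 was reached by 7 of the 20 and by 32.1% of all loci. The comparisons share libraries, so that the fall of bta-miR-1839 in each is not separate evidence.

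In 4 hairpins both arms were in the list, and their counts can be compared within a library, with no scaling between samples. bta-miR-1307 is the 3p arm of its hairpin, and the 5p arm was listed under the goat name chi-miR-1307-5p, 18 bases away (chr26:24230159-24230179). In small follicle EVs the 5p arm had 3620, 2106 and 2575 counts and the 3p arm 277, 56 and 301. In large follicle EVs they had 86, 54 and 397 and 18, 56 and 378, so that 2 of the 3 large libraries held about as much of each arm. The pooled ratio of 5p to 3p went from 13.1 for small to 7.06 for medium and 1.19 for large follicles.

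The log2 ratio of the arms of miR-1307 (with 0.5 added to each count) was 3.71, 5.22 and 3.09 in small, 3.74, 4.89 and 1.92 in medium and 2.23, -0.05 and 0.07 in large follicle EVs. It changed by -1.63 per step in size (exact permutation test over 1680 arrangements, two-sided, p = 0.025). After adjustment over the 4 hairpins p was 0.05 and did not fall under the threshold. Tested as single loci, the arms came closer in level, as the more abundant chi-miR-1307-5p fell by 1.29 on the log2 scale from small to large (SE 0.41, FDR 0.0275) and bta-miR-1307 rose. The FDR of chi-miR-1307-5p was 0.0512 and 0.107 without small replicates 1 and 2, and 0.0676 and 0.107 without large replicates 10 and 11.

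**Figure D5:**
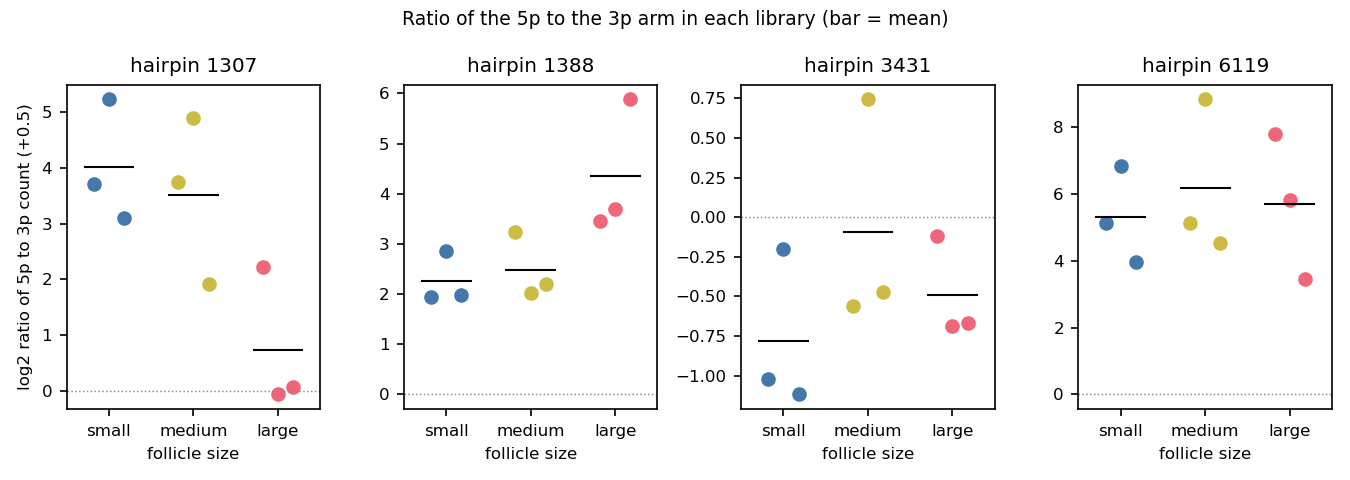
Log2 ratio of the 5p to the 3p count (0.5 added to each) in the libraries of each follicle size (points, with the mean as a bar) for the 4 hairpins with both arms in the list. For the bta-miR-1307 hairpin the small libraries lie from 3.09 to 5.22 and the large ones from -0.05 to 2.23, and for the bta-miR-1388 hairpin the large ratios rest on 3p counts of 0.

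The bta-miR-1388 hairpin went the other way, with 1.05 per step in size (exact permutation test, p = 0.0202, adjusted p = 0.05). Both of its arms were listed through their counts in small follicle EVs only. The 3p arm took 318 of 1624 counts of both arms in small follicle EVs, or 19.6%, and 27 of 174 in medium, or 15.5%. In large it took 0 of 40, which allows a share of up to 7.5%, with a floor of 3 counts over the large libraries together. With 1 added to each count in place of 0.5 the trend was 0.59 (exact permutation test, p = 0.102, adjusted p = 0.205), since it depends on what stands in for those 0 counts.

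None of the 4 hairpins had an adjusted p under 0.05 with all 9 libraries. For bta-miR-6119 the 5p arm had 34.7, 42.5 and 24.5 times the counts of the 3p arm in small, medium and large (exact permutation test, p = 0.801). bta-miR-3431 (chrX:34662714-34662736, minus strand) is the 5p arm of its hairpin and had 0.536, 0.905 and 0.662 times the counts of chi-miR-3431-3p (exact permutation test, p = 0.593).

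bta-miR-3431 lies within GABRE, a GABA receptor subunit gene, close to bta-miR-224 and bta-miR-452. It had normalized counts of 240.5, 457 and 305 in small, 309.8, 859 and 389 in medium and 189.6, 171 and 251 in large follicle EVs, with medium replicate 6 above all others. Its log2 fold change from small to large was -0.70 (SE 0.44, FDR 0.210). Of the loci on its strand within 10000 bases, chi-miR-3431-3p fell by 0.91 (SE 0.34, FDR 0.0474), a call that only the fit without large replicate 12 kept among those that left out a library (FDR 0.0560 to 0.175 in the other 8). bta-miR-452 fell by 1.46 (SE 0.44, FDR 0.0204, and 0.0694 without small replicate 1) and mml-miR-452-3p by 2.06 (SE 0.47, FDR 0.0059). bta-miR-224, a granulosa miRNA 1903 bases away, had a log2 fold change of 0.10 (SE 0.36, FDR 0.850). bta-miR-6123 was the other late-numbered locus near a lower-numbered one, 273 bases from bta-miR-296-3p, and they had log2 fold changes of -0.12 (SE 0.71, FDR 0.916) and 0.04 (SE 0.39, FDR 0.952).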

How the data were processed

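RNA of EVs from 9 follicular fluid pools was made into TruSeq small RNA libraries. The authors removed adapters, mapped reads with BWA (0.7.5a in the submitters' processing notes) to UMD3.1, merged mapped reads into loci and deposited raw read counts per locus and sample, with no normalization. Differences in miRNA share between libraries therefore remain in the counts.

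Locus IDs and names of the known and homologous miRNA were read from the study's supplementary list. That list holds only loci that reached the study's minimum mean read count in some follicle size. Members and lists were chosen with earlier results of these data known. The listed loci were scaled by TMM and fitted over the 3 sizes without covariates with edgeR 4.0.16 (R 4.3.3, limma 3.58.1). Each pair of sizes was tested (quasi-likelihood, two-sided, Benjamini-Hochberg over the listed loci, FDR under 0.05). All members are named, with the other arms of bta-miR-1307 and bta-miR-3431 and loci of the list within 10000 bases. Values in every sample are given for members called and for bta-miR-1246, bta-miR-1343-3p, bta-miR-1388-3p and bta-miR-6529a, and for bta-miR-3431, which was added after its values were seen, as was the window of 2000 bases. Arm ratios were tested by exact permutation in Python 3.11.15 with numpy 2.4.6 and pandas 2.3.3. Figures used matplotlib 3.10.9. The depth allows a share of 3 counts in 8941598 to 14664460. The steps were tested on simulated data. DESeq2 1.42.0, the exact test of edgeR, 4 other scalings, filterByExpr, a fit of only the sizes compared, a pseudocount of 1 and leaving out each library were tried as alternatives.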

Additional observations from a re-analysis of the deposited data

How the results depend on the processing

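Scaling changed directions most. Scaled to the summed count of every deposited locus, or by TMM over them, in place of the miRNA loci, the median log2 fold change of the listed loci in large versus small follicles went from -0.18 to -3.06 and -4.71, and changes are read relative to it. The log2 fold changes in large versus small became -1.76 and -3.48 for bta-miR-1246, -0.46 and -2.10 for bta-miR-1307, -0.042 and -1.66 for bta-miR-1343-3p, -1.08 and -2.71 for bta-miR-1468, -1.66 and -3.30 for bta-miR-2904 on chromosome 3, -1.35 and -3.04 on chromosome 6, -2.004 and -3.54 for bta-miR-6529a, -2.85 and -4.52 for bta-miR-224, -2.66 and -4.25 for bta-miR-296-3p, -0.33 and -1.73 for bta-miR-451 and, under the second, -0.46 for bta-miR-486. In medium versus small bta-miR-1343-3p had -0.11 and -1.08. In large versus medium bta-miR-1468 had -0.032 and -0.67, bta-miR-2904 on chromosome 6 -0.086 and -0.66, and bta-miR-1343-3p -0.58 under TMM over all loci. By construction these scalings include the falling miRNA share of the libraries. They called 192 and 232 of the listed loci in large versus small (18 late-numbered under the second), 59 and 109 in medium versus small (5 and 7 late-numbered) and 0 and 0 in large versus medium (0 and 0 late-numbered). edgeR's exact test and DESeq2 called 16 and 28 of the listed loci in medium versus small (2 and 2 late-numbered) and 52 and 63 in large versus medium (5 and 5). Scaled to the total of the listed loci, bta-miR-1839 (FDR 0.0341) and bta-miR-3431 (FDR 0.0486) were called in large versus medium. A fit of only those sizes called 2 of the listed loci and 0 late-numbered. Leaving out each library in turn gave 63 to 105 of the listed loci in large versus small (5 to 9 late-numbered), 0 to 13 in medium versus small (0 to 1) and 0 to 24 in large versus medium (0 to 1). The log2 fold change then ran from -0.43 to 0.77 for bta-miR-6529a, -0.84 to 0.17 for bta-miR-6119-5p, -1.59 to 0.010 for bta-miR-6119-3p, -1.47 to 0.31 for bta-miR-6123, -0.0087 to 0.35 for bta-miR-224 and -0.29 to 0.23 for bta-miR-296-3p, and the trend of the arm ratio from -1.93 to -1.36 for miR-1307, 0.63 to 1.25 for miR-1388 and -0.24 to 0.77 for miR-6119. Without medium replicate 6 the adjusted p of the miR-1307 and miR-1388 trends was 0.0429. In large versus small DESeq2 gave a log2 fold change of 0.027 for bta-miR-6123, and a fit of only those sizes -0.024 for bta-miR-296-3p. filterByExpr removed no locus. The cause of the other changes was not tested. No paired analysis was possible because the pools of different sizes that share a collection are not identified in the sources used here, and the sizes share no replicate number.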
